A study of Zea mays with 9 samples.

Results

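The ammonium transport genes described here are the 3 maize genes that the study listed under the Gene Ontology term ammonium transport within its cluster 1, the genes lowered by nitrate and brought back by a nitric oxide scavenger. They are Zm00001d034782, Zm00001d025831 and Zm00001d017249, 3 of the 45260 genes in the deposited table. Expression was measured by RNA-seq in primary root apexes of B73, a maize inbred line. Seedlings, labelled as 3 days old, were kept for 24 h in 1 of 3 nutrient solutions. In +NO3- + cPTIO the solution held 1 mM nitrate and 1 mM cPTIO, a compound that removes nitric oxide (NO), in +NO3- it held 1 mM nitrate alone, and in −N, the negative control, it held no nitrogen. The labels list 3 libraries for each condition, each from a pool of 10 to 15 plants, and none is labelled with an ammonium supply. All seedlings shared the same inbred background. Per the study's methods, the 3 days were germination, and the seedlings then spent 24 h without nitrogen before the 24 h of treatment.

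The deposited table holds 1 value per gene and condition, in RPKM (read counts scaled to transcript length and to sequencing depth, here with quartile normalization). The authors made each value from all libraries they kept for that condition. The spread between libraries is therefore unknown here, no difference could be checked on replicates, and no p-value was computed. The study itself tested its libraries with Cuffdiff. The genes it clustered had passed its limits on fold change and on the false discovery rate (expected share of false calls) for +NO3- against −N. The 3 genes were chosen by the study on these same values, since cluster 1 was formed from the levels in all 3 conditions, so their levels and ratios are a description. The labels call the −N and +NO3- libraries re-analyzed and the +NO3- + cPTIO libraries not, so that an effect of cPTIO and a difference between these sets of libraries cannot be told apart. The study's methods add that not all +NO3- + cPTIO libraries were kept after quality filtering. Whole root apexes were sampled, so fewer cells of a type and less RNA per cell cannot be told apart either.

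Ammonium transporters of plants are membrane proteins that carry ammonium from the soil solution, or from the space between cells, into the cytosol. Ammonium is also made inside the root from nitrate, which nitrate reductase turns into nitrite and nitrite reductase into ammonium, before glutamine synthetase builds it into amino acids. In Arabidopsis roots several ammonium transporter genes are known to be more active when nitrogen is short, and nitrate reductase is one source of NO. The files give no subfamily names for the 3 maize genes, and each is called here by its identifier.

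All 3 genes had their lowest level in +NO3-. Zm00001d034782 had an RPKM of 13.9 in +NO3- + cPTIO, 2.95 in +NO3- and 8.57 in −N. It was the only one of the 3 whose level with nitrate and cPTIO exceeded the level without nitrogen. Zm00001d025831 had an RPKM of 7.26 in +NO3- + cPTIO, 3.91 in +NO3- and 8.72 in −N. Zm00001d017249, the least abundant of the 3, had an RPKM of 2.09 in +NO3- + cPTIO, 0.645 in +NO3- and 2.81 in −N. In these 2 genes the level with nitrate and cPTIO lay between those of +NO3- and −N.

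**Figure D1:**
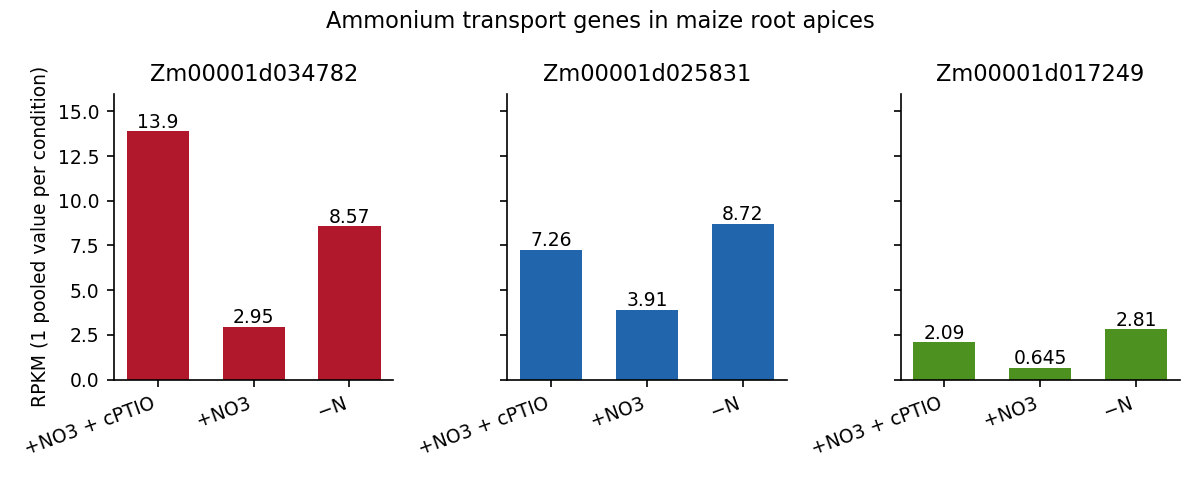
Bars give the deposited RPKM (vertical axis, from 0) of each ammonium transport gene in +NO3- + cPTIO, +NO3- and −N, 1 pooled value per bar and therefore without error bars. The +NO3- bar is the lowest for all 3 genes, and only Zm00001d034782 stands higher in +NO3- + cPTIO (13.9) than in −N (8.57).

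The levels were moderate to low for this tissue. Of all genes that reached an RPKM of 1 in the condition, 52.4% lay below Zm00001d034782 in +NO3- + cPTIO, 16.7% in +NO3- and 39.9% in −N. For Zm00001d025831 the shares were 34.4% in +NO3- + cPTIO, 21.7% in +NO3- and 40.3% in −N. Zm00001d017249 stood above 10.6% of such genes in +NO3- + cPTIO and 15.7% in −N, and it was itself under an RPKM of 1 in +NO3-. The number of reads behind a value cannot be read from the table, and a low RPKM rests on fewer reads per length than a high one.

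The first comparison, +NO3- against −N, asks how nitrate supply alone bears on these genes. Zm00001d017249 was 4.36-fold lower in +NO3- than in −N (log2 ratio −2.12), Zm00001d034782 was 2.91-fold lower (−1.54) and Zm00001d025831 was 2.23-fold lower (−1.16). All 3 passed the 2-fold limit that the study used, as their choice requires. Over the whole table, 541 of the 21290 genes that reached an RPKM of 1 in either condition, 2.54%, were over 2-fold lower in +NO3-. Zm00001d025831 was the gene nearest to the limit. With a pseudocount of 1 its log2 ratio was −0.98, and it then no longer passed. The median log2 ratio of the 3 genes was −1.54, against 0.04 over all genes with a finite ratio. Of these 21147 genes, 85 had a lower ratio than Zm00001d017249, 210 a lower one than Zm00001d034782 and 361 a lower one than Zm00001d025831.

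The order of the fold changes was not the order of the amounts. In RPKM, the level in +NO3- minus that in −N was −5.63 for Zm00001d034782, −4.80 for Zm00001d025831 and −2.17 for Zm00001d017249. The gene with the largest ratio, Zm00001d017249, thus contributed the smallest difference in level. Without nitrogen Zm00001d034782 and Zm00001d025831 were at nearly the same level, with a ratio of 0.984 between them, and in +NO3- Zm00001d034782 had 0.753 times the level of Zm00001d025831.

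The second comparison, +NO3- + cPTIO against +NO3-, asks whether removal of NO changes these levels at the same nitrate dose and time. Zm00001d034782 was 4.71-fold higher with cPTIO (log2 ratio 2.24) and Zm00001d017249 was 3.24-fold higher (1.69). Zm00001d025831 was 1.86-fold higher (0.89), which is within the 2-fold limit. With a pseudocount of 1 the log2 ratio of Zm00001d017249 was 0.91, also within it. Thus 2 of the 3 genes were over 2-fold higher, while the share over the whole table was 7.08%, or 1531 of 21617 genes, and a further 12.7% were over 2-fold lower. Since the cluster was formed on these values, nothing is read from that count. The median log2 ratio was 1.69 for the 3 genes and −0.07 for all genes with a finite ratio. The share of all genes with a lower ratio was 98.4% for Zm00001d034782, 97.1% for Zm00001d017249 and 92.1% for Zm00001d025831.

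The third comparison sets +NO3- + cPTIO against −N, and asks whether the levels with nitrate and the scavenger match those without nitrogen. No member differed by over 2-fold. The study describes cluster 1 as genes that cPTIO brings back to about the −N level. Small differences here were therefore part of the choice, and nothing is read from them. In the deposited data 9.21% of 21312 genes were over 2-fold lower in +NO3- + cPTIO and 8.33% were over 2-fold higher. Zm00001d034782 was 1.62-fold higher in +NO3- + cPTIO (log2 ratio 0.69). Zm00001d025831 was 1.20-fold lower (−0.26) and Zm00001d017249 was 1.35-fold lower (−0.43). These log2 ratios lay within the central 95% of all genes, which ran from −1.87 to 2.18. Without values per library it is not known whether these smaller ratios exceed the spread between replicates.

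**Figure D2:**
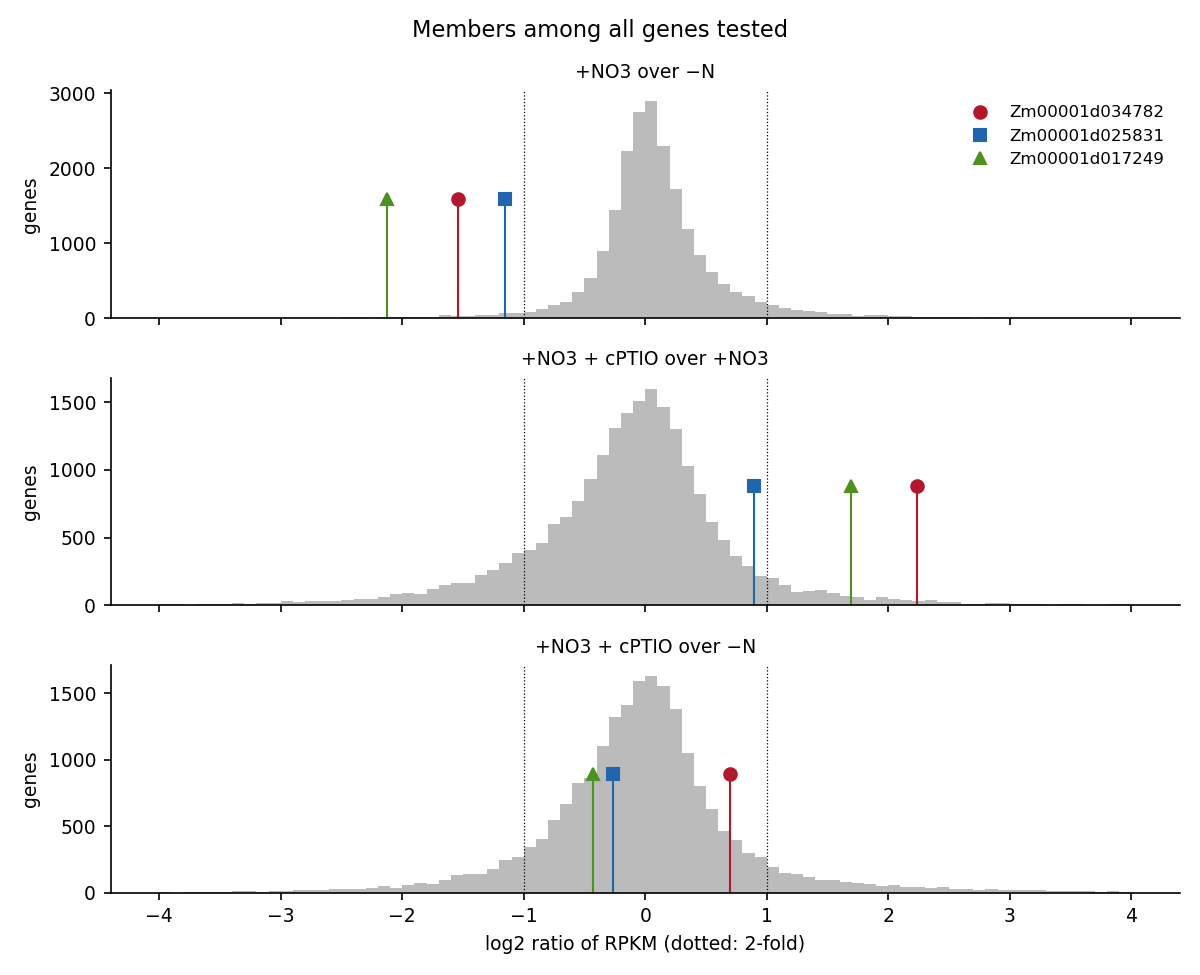
Grey bars count the genes (vertical axis) by log2 ratio of RPKM (horizontal axis, bins of 0.1) in each comparison, for genes that reached an RPKM of 1 in either condition, and coloured lines mark the 3 ammonium transport genes. The plot ends at −4 and 4, which leaves out 32, 158 and 202 genes from the top panel to the bottom one. The members lie in the lower tail for +NO3- over −N (−2.12 to −1.16), to the right of the centre for +NO3- + cPTIO over +NO3- (0.89 to 2.24) and inside the 2-fold lines for +NO3- + cPTIO over −N (−0.43 to 0.69).

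The 3 genes differed in how far the level returned with cPTIO. The part of the nitrate response still present was taken as the log2 ratio of +NO3- + cPTIO to −N divided by that of +NO3- to −N, so that 0% is the −N level and 100% the +NO3- level. It was 20.3% for Zm00001d017249 and 22.9% for Zm00001d025831, close to each other although their nitrate ratios were the most different of the 3. For Zm00001d034782 it was −45.1%, a negative share because the level passed that of −N. On the RPKM scale, the rise from +NO3- to +NO3- + cPTIO was 66.5% of the difference between −N and +NO3- for Zm00001d017249. It was 69.6% for Zm00001d025831 and 194% for Zm00001d034782.

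RPKM is corrected for transcript length, so the levels of the 3 genes can be added within a condition. Their summed RPKM was 23.2 in +NO3- + cPTIO, 7.50 in +NO3- and 20.1 in −N. The sum was 2.68-fold lower in +NO3- than in −N, and 3.10-fold higher in +NO3- + cPTIO than in +NO3-. Between +NO3- + cPTIO and −N it differed by 1.16-fold. The similar sums were composed differently. Zm00001d034782 made up 59.8% of the sum in +NO3- + cPTIO, 39.3% in +NO3- and 42.7% in −N. Zm00001d025831 made up 31.3% in +NO3- + cPTIO, 52.1% in +NO3- and 43.4% in −N, and so gave the largest share in +NO3- and in −N. Zm00001d017249 made up 8.99% in +NO3- + cPTIO, 8.59% in +NO3- and 14.0% in −N. Zm00001d034782 stood at 1.91 times the level of Zm00001d025831 in +NO3- + cPTIO, against 0.753 times in +NO3-. The shares do not depend on how the conditions were scaled to each other. Over the 3 genes, the log2 ratios spanned 0.97 for +NO3- against −N, 1.34 for +NO3- + cPTIO against +NO3- and 1.12 for +NO3- + cPTIO against −N.

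**Figure D3:**
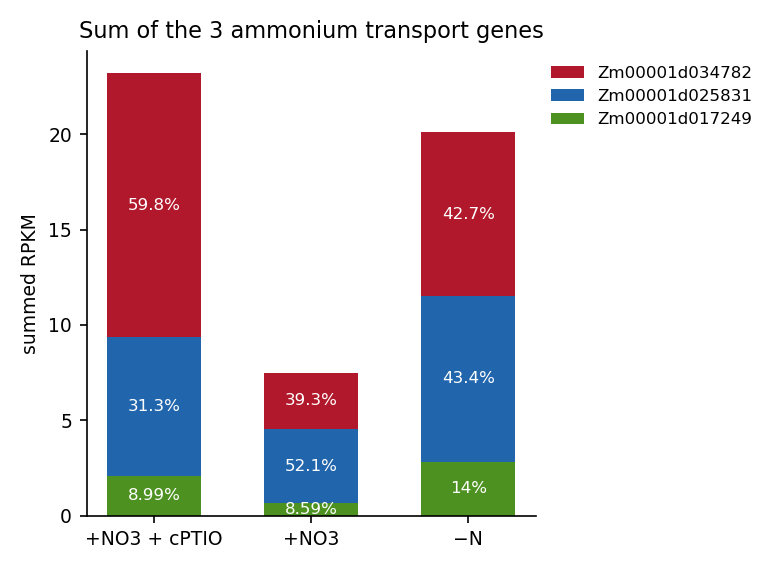
Stacked bars give the RPKM of the 3 ammonium transport genes (vertical axis, from 0) in +NO3- + cPTIO, +NO3- and −N, with the share of each gene in the sum printed in its segment. The sums of 23.2 in +NO3- + cPTIO and 20.1 in −N are near each other, and Zm00001d034782 holds 59.8% of the +NO3- + cPTIO bar and 42.7% of the −N bar.

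Within cluster 1, which holds 104 genes, the members were spread over the range of levels and ratios. Counted from the highest, Zm00001d034782 ranked 35, Zm00001d025831 ranked 50 and Zm00001d017249 ranked 91 in +NO3- + cPTIO, where the cluster median was an RPKM of 7.19. For the log2 ratio of +NO3- to −N, with a cluster median of −1.57 over the 102 genes with a finite ratio, 18 genes were lower than Zm00001d017249, 52 lower than Zm00001d034782 and 83 lower than Zm00001d025831. For +NO3- + cPTIO against +NO3-, with a cluster median of 1.94, just 4 of the 102 genes had a lower ratio than Zm00001d025831. In that comparison 39 were lower than Zm00001d017249 and 67 lower than Zm00001d034782. Zm00001d025831 therefore lay near the edge of the cluster in its ratio of +NO3- + cPTIO to +NO3-.

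The study's list for transmembrane transport in cluster 1 holds 15 genes beside the 3 members, and it was likewise chosen on these libraries. All 15 were over 2-fold lower in +NO3- than in −N, where the share over the whole table was 2.54%. Their log2 ratios had a median of −1.42 and a range of −2.44 to −1.03, which overlaps the range of the 3 ammonium transport genes. With cPTIO against +NO3-, 13 of the 15 were over 2-fold higher, against 7.08% of the whole table, and the median log2 ratio was 1.99. Against −N, 3 of the 15 were over 2-fold higher in +NO3- + cPTIO and 0 were lower, with a median log2 ratio of 0.55. The whole table had 8.33% higher and 9.21% lower. Of the 15, the gene farthest above −N was Zm00001d052435, with an RPKM of 110 in +NO3- + cPTIO, 0.997 in +NO3- and 2.67 in −N. The next was Zm00001d033517, with an RPKM of 25.6 in +NO3- + cPTIO, 0.689 in +NO3- and 2.67 in −N. No ammonium transport gene overshot −N to that extent.

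The genes that the study mapped to nitrogen metabolism showed other profiles. These 5 were also chosen by the study on these libraries, and 4 of them are mapped to the transport of nitrate or to its reduction toward ammonium. Zm00001d018161, mapped to ferredoxin-nitrite reductase, the enzyme that makes ammonium from nitrite, had an RPKM of 29.3 in +NO3- + cPTIO, 16.3 in +NO3- and 0.820 in −N. Zm00001d049995 and Zm00001d018206 are mapped to nitrate reductase, which makes the nitrite. Zm00001d049995 had an RPKM of 2.23 in +NO3- + cPTIO, 1.77 in +NO3- and 0.291 in −N. Zm00001d018206 had an RPKM of 4.66 in +NO3- + cPTIO, 4.06 in +NO3- and 1.44 in −N. Both nitrate reductase genes were thus higher than in −N wherever nitrate was present, with or without cPTIO. The ammonium transport genes in +NO3- lay on the opposite side of −N. Zm00001d044096, mapped to carbonic anhydrase, which interconverts carbon dioxide and bicarbonate, had an RPKM of 13.4 in +NO3- + cPTIO, 9.91 in +NO3- and 3.78 in −N.

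The other nitrogen carrier of that list, Zm00001d011679, is mapped to the nitrate transporters of the NRT2 family. It had an RPKM of 0.0491 in +NO3- + cPTIO, 0.385 in +NO3- and 1.93 in −N. Like the ammonium transport genes it was lower in +NO3- than in −N, with a log2 ratio of −2.32. Unlike them it was listed lower still with cPTIO, but both of its levels with nitrate were under the RPKM minimum of 1. Of the 5 genes, 4 were over 2-fold higher and 1 was over 2-fold lower in +NO3- than in −N. Over the whole table the shares were 5.24% higher and 2.54% lower. For +NO3- + cPTIO against +NO3-, the 4 genes that reached an RPKM of 1 had log2 ratios of 0.20 to 0.84, none past 2-fold. There the whole table had 7.08% higher and 12.7% lower.

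Root apexes include the root cap, and 3 genes that the study names for cap formation were looked at beside the members. Zm00001d045420, a root cap-specific protein, had an RPKM of 23.0 in +NO3- + cPTIO, 6.04 in +NO3- and 44.7 in −N. Zm00001d003583, named bearskin 2, a regulator of cap maturation, had 1.19 in +NO3- + cPTIO, 0.207 in +NO3- and 1.77 in −N. These 2 had their lowest level in +NO3-, as the ammonium transport genes did. The study placed both in cluster 1 as well, so this likeness follows from how they were chosen. Zm00001d016119, named SOMBRERO, another cap regulator, had 4.65 in +NO3- + cPTIO, 4.77 in +NO3- and 1.17 in −N, the other direction. All 3 cap genes were above 0 in every condition. Whether the share of cap cells has a part in the levels of the ammonium transport genes was not tested.

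**Figure D4:**
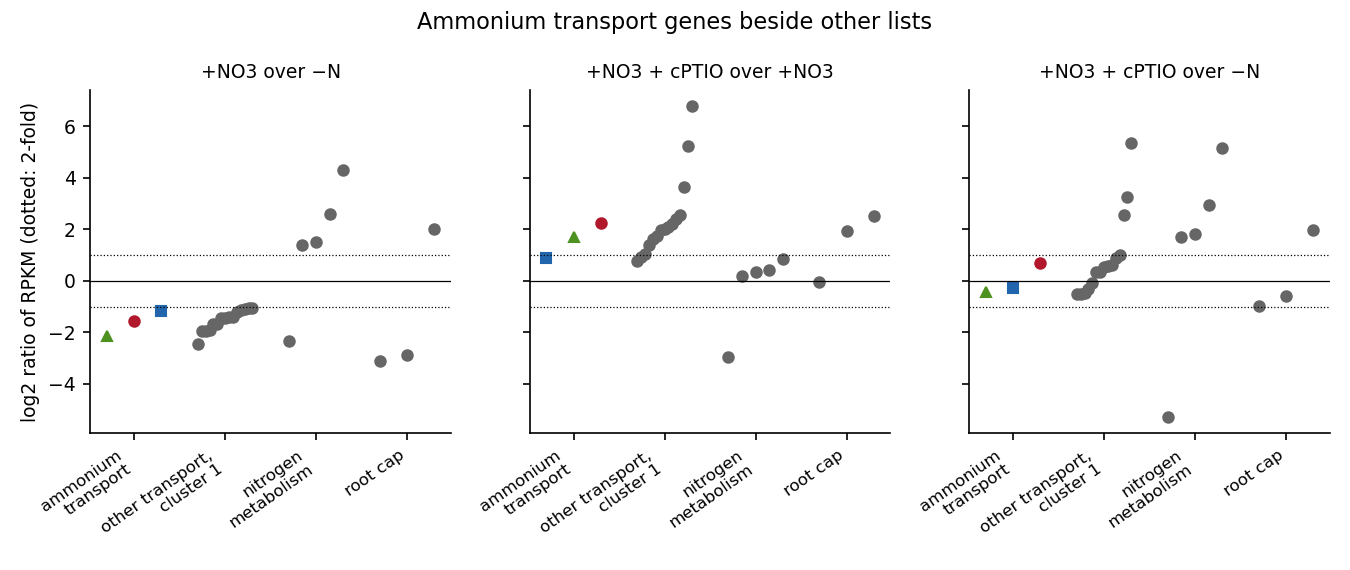
Points give the log2 ratio of RPKM (vertical axis) of each gene in the 3 comparisons for the ammonium transport genes (coloured as in the plot of their RPKM), the 15 other transport genes of cluster 1, the 5 nitrogen metabolism genes and the 3 root cap genes, sorted by value within a list; dotted lines mark 2-fold. The ammonium transport genes and the 15 others lie below −1 for +NO3- over −N, where 4 of the 5 nitrogen metabolism genes lie above 1. The nitrogen metabolism gene farthest down in the 2 cPTIO panels is Zm00001d011679, at −2.97 over +NO3-, where both of its levels are under an RPKM of 1, and at −5.29 over −N.

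The 3 genes lie on different chromosomes of the B73 RefGen_v4 assembly (AGPv4). Zm00001d034782 occupies chromosome 1 from 302188638 to 302191274, a span of 2637 bp. Zm00001d025831 occupies chromosome 10 from 131243970 to 131245467, a span of 1498 bp. Zm00001d017249 occupies chromosome 5 from 190317986 to 190319453, a span of 1468 bp. No other row of the table overlaps any of these loci. The spans include introns, if any, and exon structure was not analysed here.

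Position was not used to choose the members, and the flanking genes give a view of whether the neighbourhood moved as well. Among the 5 genes on each side of each member, 30 in all, 11 were listed at 0 in every condition. Genes listed with the same start and end were counted as separate genes. At an RPKM minimum of 1 in either condition, 11 flanking genes could be compared between +NO3- and −N. Of these, 1 was over 2-fold lower in +NO3- and 2 were over 2-fold higher, where the whole table had 2.54% lower and 5.24% higher. The 1 lower gene was Zm00001d017247, the second gene before Zm00001d017249 and 80575 bp from it. It had an RPKM of 9.87 in +NO3- + cPTIO, 5.27 in +NO3- and 13.3 in −N. Its log2 ratio for +NO3- + cPTIO against −N, −0.43, was the same to 2 decimals as that of Zm00001d017249. The other ratios differed. For +NO3- against −N it had −1.34 and Zm00001d017249 had −2.12, and for +NO3- + cPTIO against +NO3- they had 0.91 and 1.69. Between these 2 genes lies Zm00001d017248, 9141 bp from the member, with an RPKM of 3.15 in +NO3- + cPTIO, 5.17 in +NO3- and 2.41 in −N. It was thus higher in +NO3- than in −N. On the other side Zm00001d017250 had 3.02 in +NO3- + cPTIO, 3.49 in +NO3- and 3.41 in −N, and Zm00001d001705 was listed at 0 throughout.

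Around Zm00001d025831 the nearest expressed gene was Zm00001d025830, which lies 6965 bp before it. It had an RPKM of 22.8 in +NO3- + cPTIO, 15.8 in +NO3- and 18.8 in −N. Zm00001d025829 stayed under an RPKM of 1, with 0.295 in +NO3- + cPTIO and 0.146 in +NO3- and a listing at 0 in −N. The 2 genes after the member, ENSRNA049451266 and Zm00001d025833, are listed with the same start and end and were at 0 throughout. Around Zm00001d034782, Zm00001d034781 had an RPKM of 2.04 in +NO3- + cPTIO, 1.67 in +NO3- and 1.56 in −N, and Zm00001d034780 was listed at 0. Zm00001d034783, which lies 57296 bp after the member, had 1.71 in +NO3- + cPTIO, 1.04 in +NO3- and 0.394 in −N. Zm00001d034784 had 32.2 in +NO3- + cPTIO, 49.0 in +NO3- and 37.3 in −N. None of these genes had its lowest level in +NO3- by over 2-fold. For +NO3- + cPTIO against +NO3-, 13 flanking genes of the 3 members could be compared, of which 1 was over 2-fold higher and 0 were lower. The higher gene was Zm00001d025825, which lies 314845 bp before Zm00001d025831. It had an RPKM of 4.37 in +NO3- + cPTIO, 1.81 in +NO3- and 3.19 in −N. It too was lowest in +NO3-, though within 2-fold of −N (log2 ratio −0.82). Among all genes compared in the same way, 7.08% were over 2-fold higher and 12.7% were over 2-fold lower.

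**Figure D5:**
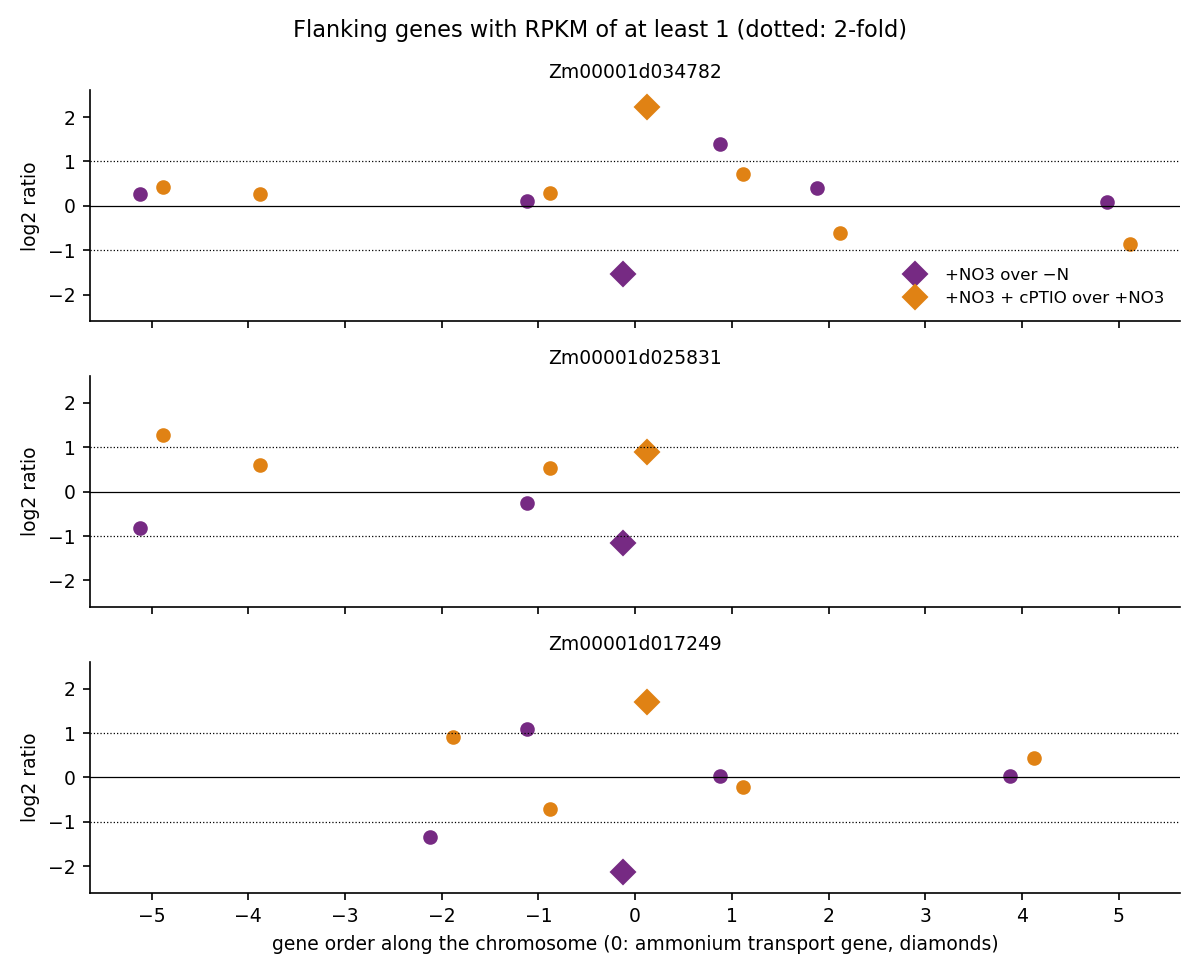
The log2 ratio of RPKM (vertical axis) is shown by gene order along the chromosome (horizontal axis) for the 5 genes on each side of each ammonium transport gene, with diamonds at position 0 for the member, purple for +NO3- over −N and orange for +NO3- + cPTIO over +NO3-; genes under an RPKM of 1 in both conditions are left out. The member is the lowest purple point in each panel, and Zm00001d017247, 2 genes before Zm00001d017249, is the flanking gene below −1.

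Genes with the most similar profiles were sought by the Euclidean distance between log2 RPKM values centred on their mean over the 3 conditions, among genes that reached an RPKM of 1 in all 3. Nearest to Zm00001d034782 were ENSRNA049456187 at a distance of 0.105, Zm00001d029397 at 0.157 and ENSRNA049477188 at 0.162, of 19100 genes compared. Zm00001d029397, which the study mapped to phospholipase D, a membrane lipid enzyme, had an RPKM of 7.00 in +NO3- + cPTIO, 1.73 in +NO3- and 4.81 in −N. Nearest to Zm00001d025831 were Zm00001d038471 at 0.0339, Zm00001d042874 at 0.0448 and Zm00001d025057 at 0.0459. Zm00001d042874, mapped to mannose-1-phosphate guanylyltransferase, which makes GDP-mannose, had 62.1 in +NO3- + cPTIO, 34.1 in +NO3- and 72.7 in −N. Nearest to Zm00001d017249, of 19101 genes, were Zm00001d026395 at 0.0944, Zm00001d013089 at 0.107 and Zm00001d008248 at 0.174. Zm00001d026395 had 6.16 in +NO3- + cPTIO, 2.02 in +NO3- and 9.09 in −N. Neither Zm00001d034782 nor Zm00001d025831 was among the genes nearest to another member, and Zm00001d017249, under an RPKM of 1 in +NO3-, could not be one. Within a distance of 0.25 lay 41 genes for Zm00001d025831 (0.215% of those compared), 9 for Zm00001d034782 (0.0471%) and 5 for Zm00001d017249 (0.0262%). A profile here has just 3 points, and the likeness describes these pooled values.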

How the data were processed

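Libraries were grouped by their titles. Per the labels and the study's methods, the authors trimmed reads with Trimmomatic 0.33, mapped them with TopHat2 2.0.13 to B73 RefGen_v4 and computed expression with Cuffdiff of Cufflinks 2.2.1, with quartile normalization and multi-read correction, which divides reads that map to several places. The deposited values are RPKM, 1 per gene and condition, without the depth per library.

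Ratios were taken without a pseudocount, and no p-value was computed, because each condition has 1 value. A gene was compared when its RPKM was at least 1 in either condition and counted when the ratio passed 2-fold, genes listed at 0 in 1 condition included. Lists came from the study's GO and KEGG assignments and its text. Named are the members, the nitrogen metabolism and cap genes, the 2 genes on each side of a member, the 3 nearest in profile and the 2 most changed other transport genes, Zm00001d052435 and Zm00001d033517. Zm00001d025825 is also named, as the flanking gene over 2-fold higher in +NO3- + cPTIO than in +NO3-. The members and lists were chosen with earlier results of these data known, and the cap genes were added after the values had been seen. Lists planned from gene descriptions and sequences were not used here, since the reference gene table (Zm-B73-REFERENCE-NAM-5.0) matched 0 of the 3 members. The steps were run on simulated data with 200 genes set to change 4-fold, which checks the calculation and not the results. Alternatives were pseudocounts (0.1 and 1), scaling by the median ratio or by the upper quartile, limits of 1.5-fold or 3-fold, RPKM minimums of 0.1, 5 or none, and another profile distance. Python 3.11.15, pandas 2.3.3 and NumPy 2.4.6 were used.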

Additional observations from a re-analysis of the deposited data

How the results depend on the processing

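Each log2 ratio of a member kept its sign under the 4 alternatives of pseudocount and scaling, and 34 of 36 such values moved by less than 1.5-fold. With a pseudocount of 1, the log2 ratio of Zm00001d017249 was −1.21 for +NO3- against −N and 0.91 for +NO3- + cPTIO against +NO3-, so that 1 member instead of 2 passed 2-fold in the second comparison. The same pseudocount gave Zm00001d025831 a log2 ratio of −0.98 for +NO3- against −N, so that 2 members instead of 3 passed there. At a limit of 3-fold, 1 member was lower in +NO3- than in −N, and at 1.5-fold 1 member was higher in +NO3- + cPTIO than in −N. The remaining share of the nitrate response ranged from 18.8% to 25.1% for Zm00001d017249, from 20.2% to 28.0% for Zm00001d025831 and from −49.7% to −42.2% for Zm00001d034782. Over the whole table the counts depended on the RPKM minimum, the limit and the pseudocount. With a pseudocount of 1, 310 genes were lower and 534 higher in +NO3- than in −N, 1760 were lower in +NO3- + cPTIO than in +NO3-, and 1259 were lower in +NO3- + cPTIO than in −N. Genes over the limit numbered 254 to 2763 lower and 445 to 4773 higher in +NO3- than in −N, where the report has 541 and 1116. In +NO3- + cPTIO they numbered 1250 to 6712 lower (2740 in the report) and 766 to 3909 higher (1531) against +NO3-, and 860 to 5233 lower (1962) and 995 to 4731 higher (1775) against −N. Of the 3 nearest genes in profile, 0 were among the nearest by Pearson's correlation for any member. An RPKM minimum of 5 removes 5 of these 9 genes by itself, so it gives no check of the profiles. No paired analysis was possible because each condition has 1 pooled value, and for the same reason no replicate could be left out.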
